A study of Ovis aries with 20 samples.

Results

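Jejunal gene expression was compared between pregnant Hu sheep ewes with restricted and with normal feeding. The members are the 10 jejunal libraries of 20 in the series, chosen by their titles and feeding labels. They are 5 of restricted feeding (titled J-TR1 to J-TR5) and 5 of normal feeding (J-CON1 to J-CON5), called restricted and normal libraries 1 to 5 here. All ewes are labelled as wild type and were at day 115 of gestation, and the other 10 libraries come from the ileum of ewes under the same feeding labels. The labels give neither the degree nor the length of the restriction. They do not say that each library came from a separate ewe, so each p-value rests on the spread among samples that may differ for technical reasons alone.

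The jejunum is the middle stretch of the small intestine and a main site of nutrient absorption. Its villi are lined by absorptive enterocytes, which are replaced from dividing cells in the crypts, and the gut wall also holds secretory, immune, stromal and muscle cells. Short supply of nutrients in pregnancy is known to alter the mass and turnover of this lining. A library of bulk tissue mixes all these cells, so fewer cells of a type and less RNA per cell cannot be told apart.

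Each library is a table of FPKM, fragments per kilobase of transcript scaled to the library's total, for 18058 genes. The files identify a gene by the word gene and a number and do not pair these IDs with names, and 0 of the 18426 IDs of the series matched the RefSeq gene table for sheep (ARS-UI_Ramb_v3.0). Genes are therefore described by level, direction and pattern over libraries, 4 of them by ID, and the tissue label was not checked against marker genes. The number of fragments per library is unknown. Relative depth, read from the steps between low FPKM values, was 0.904 to 1.01 in restricted and 0.931 to 1.27 in normal libraries, on a scale where normal library 1 is 1. Of the 18058 genes, 12652 reached 1 FPKM in at least 5 of the 10 libraries and were tested. At this border, 196 genes reached 1 FPKM in exactly 5 libraries and were tested, and 210 did so in exactly 4 and were not.

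Restricted library 2 stood apart from the other 9 jejunal libraries. Of the 442 genes in which 1 library lay lowest by at least 1 on the log2(FPKM + 1) scale, this library was the lowest in 377, and of 118 genes with a lone highest library it was the highest in 61. Each of the other 9 libraries was lowest in 3 to 19 and highest in 1 to 18 such genes. Its correlation with other jejunal libraries across genes was at most 0.929. With the ileal library of the same feeding and number it correlated at 0.977, and with the other ileal libraries at up to 0.957. Correlations with ileal libraries were taken over the 13279 genes of the interaction test below, and those among jejunal libraries over the 12652 genes tested. Each of the other 9 jejunal libraries correlated with the ileal library of its number at 0.918 to 0.970 and with its nearest jejunal library at 0.969 to 0.981. Of these 9, normal library 3 came closest to the other ileal libraries, at up to 0.965. For the fourth most abundant jejunal gene, restricted library 2 held 150 FPKM. The other 9 held 2013 FPKM or more, and ileal libraries at most 467 FPKM. For the gene with the largest decrease, described below, it held 1.51 FPKM. There the other 9 held 166 FPKM or more, and ileal libraries at most 9.79 FPKM. Both genes were picked after their values were seen. Whether restricted library 2 holds the segment that its label names was not tested, and no named marker genes were at hand. The main counts below are therefore also given without it.

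The restricted libraries had lower correlations with each other than the normal ones, by a margin that did not pass. A restricted library correlated with the others of its group at a mean r of 0.949, 0.892, 0.940, 0.927 and 0.942 for numbers 1 to 5. A normal library did so at 0.954, 0.973, 0.969, 0.970 and 0.969. Every restricted library correlated better with the normal group (mean r of 0.966, 0.906, 0.950, 0.945 and 0.961) than with its own. Without restricted library 2, numbers 3 and 4 were closer to their own group (0.960 and 0.952) and numbers 1 and 5 still to the normal one. The mean correlation within a group was 0.930 under restricted and 0.967 under normal feeding, a difference that did not pass (exact two-sided permutation test, p = 0.111, and 0.194 when adjusted over the 7 measures taken per library). Without restricted library 2 the means were 0.955 and 0.967 (exact permutation test, adjusted p = 0.322). These correlations are across genes, which are not independent replicates.

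The main axis of expression crossed the feeding groups. Principal component 1 of the 12652 genes took up 45.6% of their variance. Its lower end held restricted libraries 4 and 3, at -39.18 and -24.79, beside normal library 1 at -33.86. Its upper end held restricted library 2 alone, at 66.68. The second component held 15.8%, and here restricted libraries lay at 3.45, 25.91, 25.76, 19.89 and -4.50 and normal libraries at -4.93, -14.01, -16.06, -18.71 and -16.81, each by library number. The groups did not overlap on it, though restricted library 5 and normal library 1 lay next to each other.

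**Figure D1:**
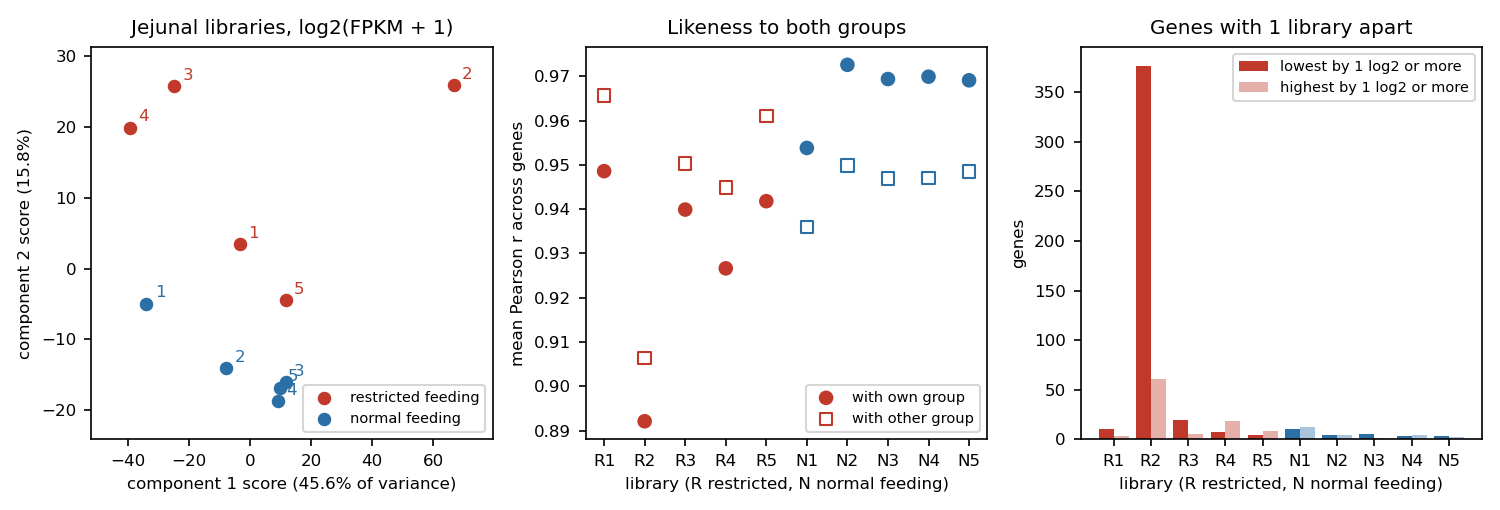
Left, scores of the 10 jejunal libraries on the first and second principal components of log2(FPKM + 1), with red for restricted and blue for normal feeding and the library number beside each point. Middle, mean Pearson correlation of each library with its own group (filled circles) and with the other group (open squares). Right, number of genes in which a library lay lowest (dark bars) or highest (pale bars) of all 10 by at least 1 log2 unit. Restricted library 2 lies alone at 66.68 on the first component and is the lowest in 377 genes.

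Most single genes had a larger spread among restricted libraries, though the shift over all genes did not pass. The standard deviation on the log2(FPKM + 1) scale was larger under restriction for 76.4% of the 12652 genes, with a median of 0.276 under restricted and 0.183 under normal feeding. The median log2 ratio of the standard deviations was 0.583 and did not pass (exact two-sided permutation test, p = 0.0873, adjusted p = 0.194). Without restricted library 2 the ratio was 0.287 (exact permutation test, adjusted p = 0.322) and 63.8% of genes varied more under restriction.

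The number of expressed genes was then compared. At 1 FPKM or more, restricted libraries 1 to 5 held 12593, 12250, 12415, 12463 and 12438 genes, against 12481, 12603, 12763, 12851 and 12605 in normal libraries. The means were 12432 ± 123 under restricted and 12661 ± 146 under normal feeding (SD, n = 5 each). The difference of -228.8 genes had p = 0.0159 in the exact two-sided permutation test and did not pass after adjustment over the 7 measures (adjusted p = 0.111). Leaving out restricted library 2, the difference was -183.35 genes (exact permutation test, p = 0.0397, adjusted p = 0.278). The ranges overlapped. Relative depth, at the values given above, was lower on the whole in restricted libraries, and its part in the difference was not tested. At 10 FPKM the means were 6277 ± 71.5 and 6357 ± 119 (SD, n = 5 each, exact permutation test, adjusted p = 0.311), and at 100 FPKM 638 ± 31.7 and 621 ± 7.28 (SD, n = 5 each, exact permutation test, adjusted p = 0.463), restricted first in both. With FPKM rescaled to equal totals, the restricted minus normal difference at 100 FPKM turned from 17.2 to -11.2 genes and that at 10 FPKM grew from -80.6 to -242.0 genes (exact permutation test, adjusted p = 0.122 and 0.0556). The 100 most abundant genes took 34.7% ± 0.849 of summed FPKM in restricted and 33.3% ± 1.04 in normal libraries (SD, n = 5 each, exact permutation test, adjusted p = 0.194).

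Some genes of low level crossed 1 FPKM in a single feeding group. In 14 genes all 5 normal libraries and no restricted one reached 1 FPKM, and 0 genes showed the opposite pattern. These 14 genes were of low level, with a median of the group means of 0.594 FPKM in restricted and 1.48 FPKM in normal libraries. Such genes met the filter of the test below through the normal libraries alone, so whether they passed adds nothing. With at least 4 libraries of one group and at most 1 of the other, 88 genes reached 1 FPKM in the normal and 33 in the restricted group. Without restricted library 2, 22 genes reached 1 FPKM in all normal and no restricted libraries, and 5 in all restricted and no normal ones. Leaving out any restricted library loosens both conditions, so these counts could only stay or rise. The counts of these patterns were not tested.

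Expression of each gene was tested for a feeding difference with limma on log2(FPKM + 1). The threshold was an adjusted p of 0.05 over all 12652 genes. Fold changes are restricted over normal on the log2(FPKM + 1) scale, on which the change of a low gene comes out too small. In all, 69 genes passed (0.545%), of which 11 rose (0.0869%) and 58 fell (0.458%). An unadjusted p under 0.05 was found for 1068 genes (8.44%), with 345 higher (2.73%) and 723 lower (5.71%). Restricted and normal libraries did not overlap in 337 genes (2.66%), with 92 higher (0.727%) and 245 lower (1.94%). Just outside the threshold, 65 genes had an adjusted p of 0.05 to 0.1, of which 13 were higher and 52 lower. Without restricted library 2, 13 rose and 59 fell, and 59 of these 72 were among the 69. Left out singly, other libraries moved the count more: 22 or 42 genes passed without restricted library 3 or 4, and 10, 15, 10 or 11 without normal library 2, 3, 4 or 5.

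The genes that passed were spread over all levels of expression. Below 10 FPKM in the higher group mean, 1 gene rose and 35 fell of 5968, or 0.603% of the class. From 10 to 100 FPKM, 8 rose and 21 fell of 6013, or 0.482%. At 100 FPKM or more, 2 rose and 2 fell of 671, or 0.596%. The most abundant gene that fell averaged 149 ± 41.0 FPKM in restricted and 334 ± 60.3 FPKM in normal libraries (SD, n = 5 each; log2 fold change -1.18, adjusted p of 0.0325 in limma). The genes that rose in this class averaged 125 ± 39.3 and 135 ± 8.59 FPKM in restricted, against 56.2 ± 6.64 and 86.7 ± 7.83 FPKM in normal libraries (SD, n = 5 each). The balance of directions over all genes differed by level without any test on it. Genes below 10 FPKM with an unadjusted p under 0.05 numbered 135 higher and 449 lower, and those at 100 FPKM or more 33 higher and 27 lower.

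**Figure D2:**
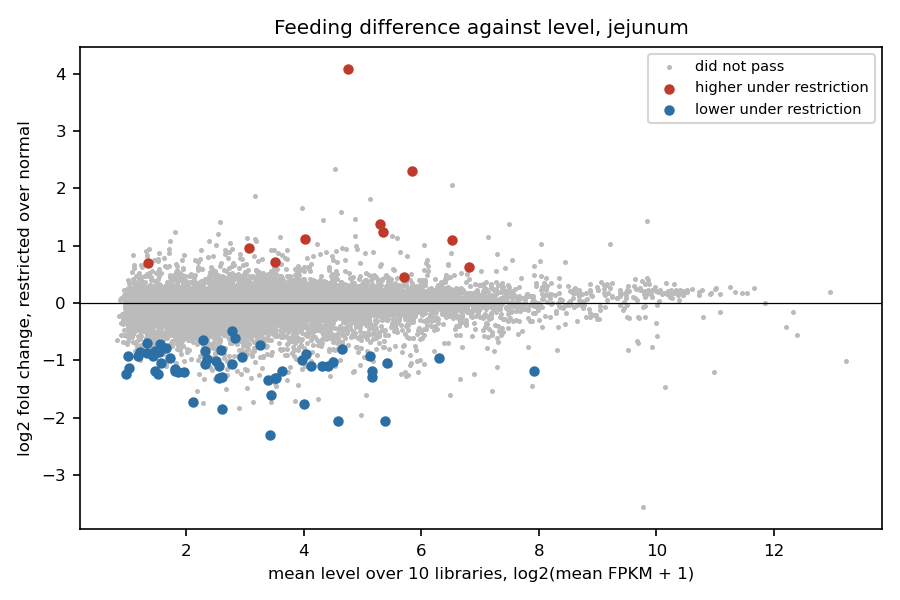
Log2 fold change of restricted over normal jejunum against the mean level of each tested gene, log2(mean FPKM + 1) over the 10 libraries. Red points are the 11 genes that rose, blue points the 58 that fell, and grey points the genes that did not pass. Grey points lie as far from 0 as most coloured ones, the lowest at -3.56.

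The largest increase was that of gene13390. It stood at 28.4, 47.0, 76.6, 87.2 and 10.7 FPKM in restricted libraries 1 to 5, against 0.0, 0.764, 1.53, 6.42 and 1.42 FPKM in normal libraries. Every restricted library lay above every normal one, but the restricted values spread over a wide range and number 5 was far below number 4. Its mean was 49.96 ± 32.1 FPKM in restricted and 2.03 ± 2.53 FPKM in normal libraries (SD, n = 5 each), a log2 fold change of 4.08 ± 0.623 (SE; adjusted p of 0.0198 in limma). It passed in 6 of the 10 fits that left out 1 library.

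The increase with the smallest p-value was that of gene24482. It stood at 51.2, 59.4, 67.7, 50.7 and 50.3 FPKM in restricted libraries, against 23.4, 28.4, 20.9, 20.7 and 22.5 FPKM in normal libraries. Both groups were narrow and lay well apart. Its log2 fold change of 1.23 ± 0.118 (SE) had an adjusted p of 0.00433 in limma, and the gene passed in all 10 fits that left out a library.

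The largest decrease among the genes that passed was that of gene28839. It stood at 2.93, 2.61, 0.578, 1.39 and 8.57 FPKM in restricted libraries, against 14.7, 17.2, 16.2, 16.1 and 16.6 FPKM in normal libraries. The normal libraries were nearly equal, while restricted library 5 was far above the other 4. Its log2 fold change of -2.30 ± 0.385 (SE) had an adjusted p of 0.0283 in limma. This call was fragile, since it held in 1 of the 10 fits without a library.

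The decrease with the smallest p-value was that of gene10153, a gene of low level. It stood at 1.54, 1.15, 0.915, 1.37 and 0.889 FPKM in restricted libraries, against 3.93, 3.39, 3.88, 3.84 and 3.96 FPKM in normal libraries. Its groups lay far apart relative to their width. Its log2 fold change of -1.15 ± 0.108 (SE) had an adjusted p of 0.00433 in limma, and it passed in all 10 fits without a library.

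**Figure D3:**
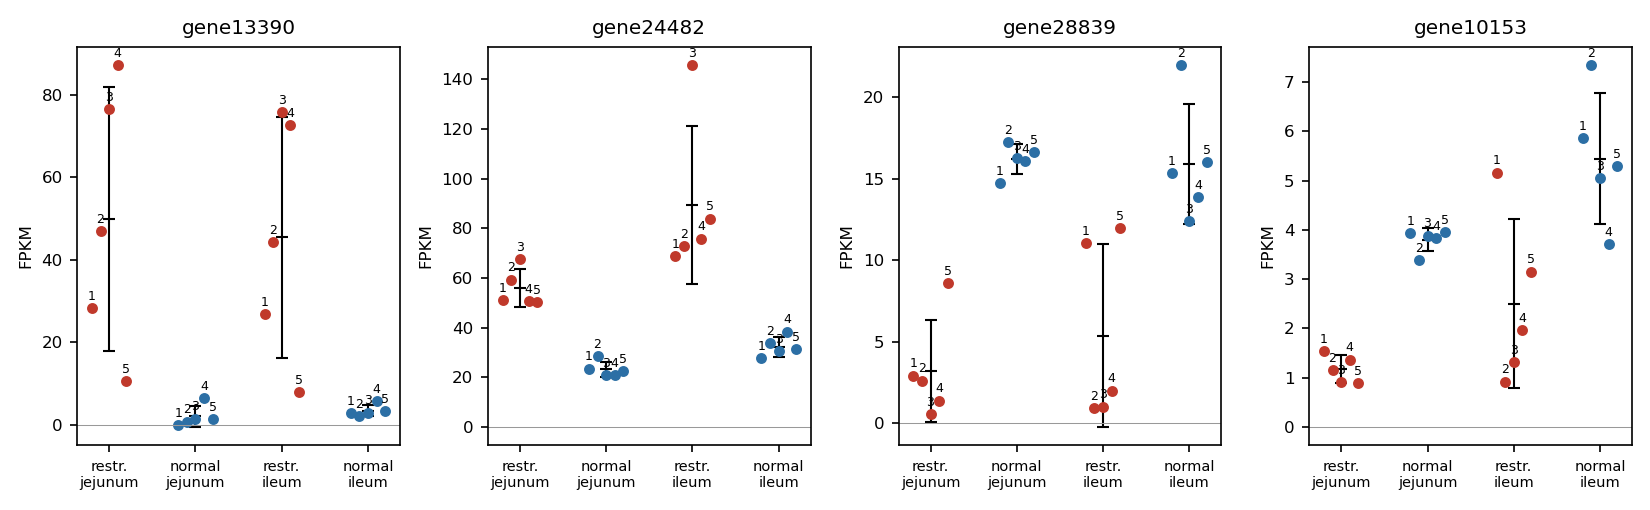
FPKM of the 4 genes given by ID in every library of restricted jejunum, normal jejunum, restricted ileum and normal ileum, with red for restricted and blue for normal feeding. Points carry the library number, and bars show the mean and SD of 5 libraries. For gene13390 the order of restricted libraries is nearly the same in jejunum and ileum, with number 5 lowest at 10.7 and 7.92 FPKM.

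Other large changes showed the same separation with different spreads. The second largest increase, a log2 fold change of 2.30, stood at 93.1, 54.1, 157, 112 and 54.5 FPKM in restricted and at 29.7, 19.9, 13.4, 17.7 and 9.14 FPKM in normal libraries. The third, with a log2 fold change of 1.37, stood at 55.3, 73.0, 61.8, 39.3 and 50.4 FPKM in restricted and between 18.5 and 21.7 FPKM in normal libraries. Among the decreases, the second largest had a log2 fold change of -2.06, with 12.02, 11.3, 5.90, 5.19 and 7.87 FPKM in restricted and 34.9, 26.4, 47.1, 45.4 and 33.9 FPKM in normal libraries. The third, also at -2.06, stood at 24.0, 21.8, 6.56, 15.3 and 12.8 FPKM in restricted and at 59.7, 55.1, 83.7, 68.4 and 59.4 FPKM in normal libraries. In both of these genes, restricted libraries 1 and 2 were the least reduced. The fourth, at -1.85, was a low gene with 2.29, 1.84, 1.15, 0.661 and 2.34 FPKM in restricted and 4.89, 8.31, 8.48, 10.2 and 10.6 FPKM in normal libraries. Normal library 1 came nearest to the restricted ones.

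A set of 9 genes passed in every fit that left out 1 of the 10 libraries. It held 2 genes that rose, with means of 55.8 and 56.0 FPKM in restricted against 23.2 and 20.6 FPKM in normal libraries. The 7 that fell had means of 1.17 to 9.51 FPKM in restricted and 3.80 to 37.5 FPKM in normal libraries, and their decreases ran from 0.99 to 2.06 on the log2 scale. The most abundant 2 of the 7 averaged 8.46 ± 3.10 and 9.51 ± 1.61 FPKM in restricted, against 37.5 ± 8.60 and 19.7 ± 0.564 FPKM in normal libraries (SD, n = 5 each). The other 5 were all below 10 FPKM in both groups. The highest adjusted p of the 9 in the fit of all libraries was 0.00948 (limma), and no other gene was under 0.01 there. The fits without a library reuse all the others, so passing them restates these low p-values and is no separate support. The distance between the nearest libraries of the groups was 0.48 to 1.08 on the log2 scale in the genes that fell and 0.80 to 0.83 in those that rose.

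In each of the 69 genes that passed, restricted and normal libraries did not overlap, against 2.66% of the genes tested. The change and its spread chose these genes, so the following values describe them and support nothing. Among the 11 that rose, the increases ran from 0.46 to 4.08 on the log2 scale, 6 were at least 2-fold and 2 at least 4-fold. Among the 58 that fell, the decreases ran from 0.49 to 2.30, 34 were at least 2-fold and 3 at least 4-fold. In 12 of the 58 the restricted mean was below 1 FPKM, and in 4 every restricted library was. Just 1 gene that rose had a normal mean below 1 FPKM. The standard deviation was larger under restriction in 9 of the 11 and in 46 of the 58, beside the 76.4% of all genes.

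The restricted libraries shared these changes to different degrees. Averaged over the 58 genes that fell, log2(FPKM + 1) lay 0.89, 1.05, 1.36, 1.17 and 1.13 below the normal mean in restricted libraries 1 to 5. Restricted library 3 was the lowest restricted library in 21 of these genes and library 5 in 17, while library 1 was the highest in 30. Averaged over the 11 genes that rose, the restricted libraries lay 1.22, 1.45, 1.59, 1.31 and 1.10 above the normal mean, and library 3 was the highest in 6. Restricted library 2, which stood apart over all genes, lay inside the range of the other restricted libraries for both groups of genes. Choosing genes by their spread works toward this, so it is no separate result about that library. Among normal libraries, number 2 was the lowest in 23 and number 1 in 18 of the 58, and number 4 was the highest in 22.

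**Figure D4:**
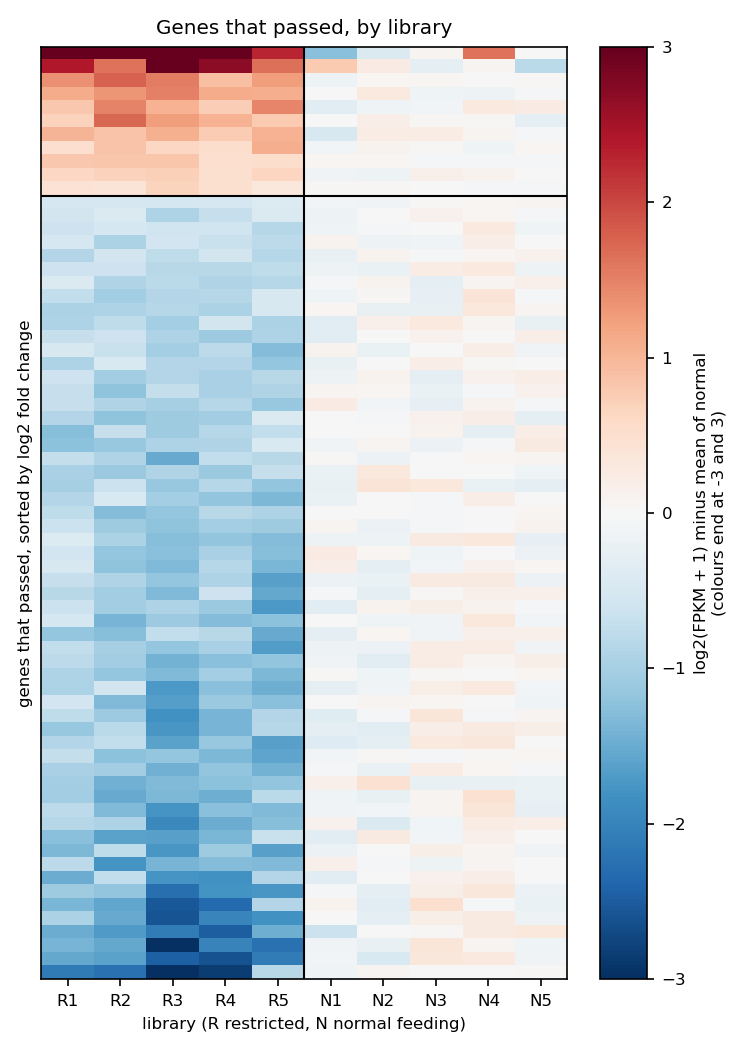
Deviation of log2(FPKM + 1) from the normal mean for the 69 genes that passed (rows, sorted by log2 fold change) in restricted libraries R1 to R5 and normal libraries N1 to N5. Red is above and blue below the normal mean, with colours ending at -3 and 3, and the horizontal line parts the 11 genes that rose from the 58 that fell. The deepest blue is in R3, where the 58 genes averaged -1.36.

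Most genes with a fold change of 2 or more did not pass. A difference of at least 2-fold was found in 35 higher (0.277%) and 109 lower genes (0.862%), of which 6 and 34 passed. With restricted library 2 left out, 56 higher and 104 lower of the 12652 genes differed by as much. In the comparison of all 10 libraries, 104 of the 2-fold genes of both directions did not pass. Their median standard deviation was 1.03 in restricted and 0.595 in normal libraries on the log2 scale. The 40 that passed had 0.384 in restricted and 0.223 in normal libraries. Restricted library 2 was the restricted library farthest from the normal mean in 48 of the 104 and in 7 of the 40. The test itself uses the spread, so these contrasts follow from how the genes were parted and are no separate result.

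The genes with the largest differences among those that did not pass were examined after their values were seen. The largest such increase stood at 93.7, 3.94, 61.7, 26.0 and 12.4 FPKM in restricted and at 11.99, 4.93, 2.20, 2.78 and 2.48 FPKM in normal libraries. Restricted library 2 lay inside the normal range and the other 4 above it. The log2 fold change was 2.33 ± 0.746 (SE; adjusted p of 0.321 in limma), and 2.93 ± 0.594 without restricted library 2 (adjusted p of 0.0720). The gene passed with library weights (3.34, adjusted p of 0.0201 in limma) and with the first principal component as covariate (2.48, adjusted p of 0.0373), and its adjusted p over all alternatives ran from 0.0201 to 0.634.

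The largest decrease that did not pass belonged to a gene of high level in the jejunum. This gene stood at 195, 1.51, 239, 166 and 365 FPKM in restricted and at 4101, 1839, 530, 656 and 635 FPKM in normal libraries. Its groups did not overlap, and its log2 fold change of -3.56 ± 1.25 was the largest decrease of all tested genes (SE, limma, adjusted p = 0.397). Without restricted library 2 it was -2.26 ± 0.58 (SE, limma, adjusted p = 0.162). In the ileum this gene was far lower, at 0 to 0.260 FPKM in restricted and 0.820 to 9.79 FPKM in normal libraries, and the groups did not overlap there either.

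The second largest increase that did not pass was that of a gene present in some libraries and absent from others of both feeding groups. It stood at 146, 189, 125 and 181 FPKM in restricted libraries 1 to 4 and was listed at 0 in restricted library 5. It was also listed at 0 in normal libraries 1 and 2, and stood at 144, 74.6 and 44.6 FPKM in normal libraries 3, 4 and 5. The ileal libraries of the same numbers were likewise at or near 0 in restricted number 5 and in normal numbers 1 and 2, at most 0.149 FPKM. In the others they stood at 77.1 FPKM or more, except restricted number 2 at 4.63 FPKM. Its feeding difference was far from the threshold (limma, adjusted p = 0.905).

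The most abundant jejunal transcripts did not pass. Of the 20 genes with the highest mean FPKM over the 10 libraries, 12 were higher and 8 lower under restriction. Of these 20, 0 passed (limma, smallest adjusted p = 0.576), 1 had an unadjusted p under 0.05 and 1 had groups that did not overlap. Over all tested genes, 52.4% were lower, 0.545% passed, 8.44% had an unadjusted p under 0.05 and 2.66% had groups without overlap. Counts among 20 genes are too small to set abundant genes apart from these shares. The median share of summed FPKM of the 20 was 15.0% in restricted and 14.9% in normal libraries. Several of them varied widely among restricted libraries. The most abundant gene stood at 14686, 1570, 5966, 10306 and 4506 FPKM in restricted and between 9830 and 14429 FPKM in normal libraries. The fourth stood at 8828, 150, 10434, 6883 and 4484 FPKM in restricted and between 2013 and 7176 FPKM in normal libraries. Restricted library 2 was the lowest in both, and the ileal library of its feeding and number stood at 1310 and 49.6 FPKM.

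The sixth and the sixteenth showed the opposite in restricted library 2. For them the ileal library of its feeding and number stood at 11437 and 11771 FPKM. The sixth stood at 1967, 15709, 1092, 1214 and 2220 FPKM in restricted and between 1104 and 6117 FPKM in normal libraries. The sixteenth stood at 1576, 7010, 14.01, 585 and 1946 FPKM in restricted and between 985 and 3269 FPKM in normal libraries. Restricted library 3 was far below all others for this gene, and the ileal library of the same number was as low, at 12.3 FPKM.

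The ileal libraries, which took no part in choosing the genes, gave a reading of the 69 in another segment. In the ileal comparison itself, 2 of 12830 genes passed (0.0156%). In the ileum, 6 of the 11 genes that rose and 32 of the 58 that fell had groups that did not overlap in the same direction, where 0.499% and 1.89% of all ileal genes tested did so. Averaged over the 58, restricted ileal libraries 1 to 5 lay 0.53, 1.22, 0.96, 0.93 and 0.45 below the normal ileal mean on the log2 scale. Across segments, 5 of 5 restricted and 3 of 5 normal jejunal libraries deviated from their group mean most like the ileal library of the same number. The labels do not say whether equal numbers mark the same ewe, so the ileal values may share their source with the jejunal ones. For gene13390 the restricted ileal libraries 1 to 5 stood at 26.9, 44.3, 75.8, 72.7 and 7.92 FPKM, close to the jejunal library of the same number, against 2.18 to 5.69 FPKM in normal ileal libraries. For gene28839 and gene10153, restricted ileal libraries 1 and 5 were less reduced, at 11.03 and 11.95 FPKM and at 5.16 and 3.16 FPKM, against 12.4 to 22.0 FPKM and 3.71 to 7.35 FPKM in normal ileal libraries.

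Whether the feeding difference itself differed between jejunum and ileum was tested as an interaction over all 20 libraries. Of 13279 genes, 0 passed, or 0% (limma, smallest adjusted p = 1.0) and 262, or 1.97%, had an unadjusted p under 0.05. For the 4 genes given by ID, the interaction estimates were 0.98 ± 0.866 for gene13390, -0.16 ± 0.234 for gene24482, -0.41 ± 0.712 for gene28839 and -0.17 ± 0.328 for gene10153 (SE, limma, adjusted p = 1.0 for each). No gene of the jejunal comparison is thereby shown to respond in the jejunum alone.

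**Figure D5:**
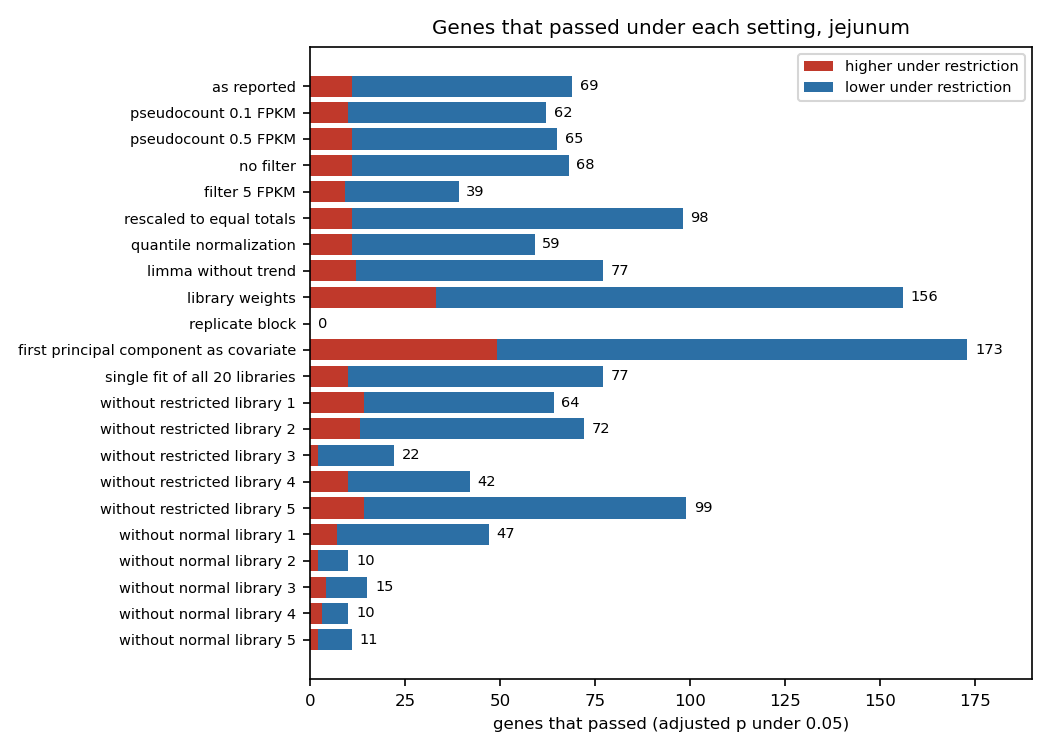
Number of genes that passed in the jejunal feeding comparison under each setting, with red for genes that rose and blue for genes that fell under restriction. The count was 69 as reported and ran from 10 to 99 when 1 library was left out, and genes that fell outnumbered those that rose wherever any passed.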

How the data were processed

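Libraries came from Trizol-extracted RNA and an NEBNext kit, per the labels' protocols. The authors deposited 1 table of FPKM values per library, per the file headers. Not given in the sources used here are the aligner, counter, annotation and build. FPKM are not counts, so limma (version 3.58.1, R version 4.3.3) with a mean-variance trend was run on log2(FPKM + 1). Genes at 1 FPKM or more in at least 5 libraries were tested, with Benjamini-Hochberg adjustment over all of them. The feeding comparison used the 10 jejunal libraries, and the interaction was fitted to the 4 groups of all 20 libraries. The 7 library measures were compared by exact two-sided permutation tests, which cannot give a p below 0.00794. The feeding and interaction fits, the permutation test and the estimate of relative depth were tested on simulated data, and the other steps were not. Genes given by ID are, in each direction, the one with the largest fold change and the one with the smallest p-value among passing genes with separate groups. Members, genes and tests were chosen with earlier results of these data known. Libraries were grouped by their titles, since a general treatment note names restricted feeding for normally fed samples too. The alternatives changed the pseudocount, filter, scaling, trend, weights, block, covariates and the libraries used. Gene lists by symbol could not be used. Relative depth was the inverse of the most common ratio of low values to those of normal library 1, and intervals that need counts were not computed.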

Additional observations from a re-analysis of the deposited data

Results flagged for a closer look

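Among 40 groups of 5 libraries whose values are reported, 4 held a library far from the other 4. Chance gives about 1 such group in 20. Normal library 1 had a mean correlation of 0.954 with its own group, below the other normal libraries at 0.969 to 0.973. Normal library 4 held 6.42 FPKM of gene13390, where the other normal libraries held at most 1.53. Restricted ileal library 3 held 146 FPKM of gene24482, where the other restricted ileal libraries held at most 83.9. Normal library 2 held 3.39 FPKM of gene10153, below the other normal libraries at 3.84 to 3.96.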

How the results depend on the processing

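The count of 69 genes (11 higher, 58 lower) stayed within 1.5 times under another pseudocount, no filter, rescaled totals, quantile normalization, no trend and a single fit of all 20 libraries. The genes behind the count were not all the same. Among the 69 were 57 of 68 genes without a filter, 57 of 59 with quantile normalization and 50 of 77 in the single fit. So were 68 of 98 with rescaled totals, 69 of 77 without a trend and all 62 or 65 under another pseudocount. The count was 39 (9 higher, 30 lower) with a filter at 5 FPKM, where 9164 genes were tested, and 156 (33 higher, 123 lower) with library weights. It was 173 (49 higher, 124 lower) with the first principal component as covariate, a setting chosen after seeing the data. The cause was not tested for the last 2 settings. It ran from 10 to 99 without 1 library, with 2 to 14 higher and 7 to 85 lower. With the replicate number as a block it was 0 (0 higher, 0 lower; limma, 869 genes at an unadjusted p under 0.05). Same-numbered restricted and normal libraries correlated at -0.314 to 0.212 in their deviations from group means. Of 5 restricted libraries, 1 correlated best with its own number. Correlations over so few numbers cannot decide whether the numbers pair the samples, which the labels do not state. Between segments such correlations were 0.168 to 0.637 under restricted and 0.0219 to 0.5 under normal feeding, best with the own number in 5 of 5 restricted and 3 of 5 normal libraries. With the number as a block, the interaction gave 0 genes (limma, 546 at an unadjusted p under 0.05, smallest adjusted p = 0.378).

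Without 1 library, the difference in genes at 1 FPKM ran from -273.7 to -181.2, that at 10 FPKM from -127.5 to -44.5 and the median log2 ratio of standard deviations from 0.287 to 0.917. All 3 passed without normal library 1 (exact permutation test, adjusted p = 0.0370 each), the library nearest to restricted libraries 3 and 4 on the first component, and in no other fit without a library. The interaction gave 0 genes in each of 5 alternatives, with 181 to 546 genes at an unadjusted limma p under 0.05. Of 21 alternatives each, gene13390 passed in 15, gene24482 in 20 and gene28839 in 10, and gene10153, which the filter at 5 FPKM left out, passed in 19 of 20. No direction of these 4 turned, which says little since they were chosen among genes with separate groups. Adjusted p over the alternatives ran from 0.00487 to 0.123, 0.00172 to 0.123, 0.00619 to 0.17 and 0.00209 to 0.125 (limma). Depth limits genes near 1 FPKM most, and no read counts were at hand to set an interval on them.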
